A study of Mus musculus with 6 samples.

Results

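Pancreatic secretion needs water channels, ion transporters and junctions between cells, and 10 mouse genes for such proteins were followed in cerulein pancreatitis and after saline injection. They were chosen by symbol as 3 aquaporins (Aqp1, Aqp8, Aqp12), the chloride channel Cftr, the carbonic anhydrase Car2, the cotransporters Slc4a4 and Slc12a2, the potassium channel Kcnn4 and the connexins Gjb1 and Gjb2. All 10 are among the 36333 rows of the deposited count table, and all 10 passed the filter on low counts, as did 12441 rows in all. The libraries came from the pancreas of mice with the genotype WT, 3 injected intraperitoneally with cerulein and 3 with saline. Cerulein was given 10 times in a volume of 200 µl at 200 µg/kg/h, and tissue RNA was taken when the model was complete, an early stage of acute pancreatitis. Cerulein acts on cholecystokinin receptors, and repeated high doses injure acinar cells. The sources used here state neither strain, age and sex, nor how often saline was given, nor whether each library is 1 animal, so p-values measure the spread between these libraries, which may be technical.

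Acinar cells secrete enzymes in a small volume of chloride-rich fluid, and duct cells add bicarbonate and most of the water. Chloride enters across the basolateral membrane through the cotransporter Slc12a2 and leaves into the lumen through channels, bicarbonate is made by carbonic anhydrase and imported by Slc4a4, calcium-activated potassium channels such as Kcnn4 keep the driving force, and water follows through aquaporins. Gap junctions built of connexins join acinar cells into groups that share ions and small messengers.

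The table gave between 6307887 and 7610775 reads per cerulein library and between 5335117 and 7194125 per saline library. A list of 22 digestive enzyme genes took 31.8% ± 2.19 of the reads in cerulein and 55.5% ± 8.07 in saline (SD, n = 3 each), with saline replicate 1 at 46.2% against 59.8% and 60.6% in the other saline libraries. For the labelled tissue, pancreas, all 12 acinar markers passed the filter. Levels are CPM, the counts relative to library size after scaling with TMM factors, which balance the bulk of the genes between libraries. Gene positions are those of GENCODE M21 on GRCm38, on the plus strand except for Gjb2 on the minus strand. Values of 3 libraries are always listed in the order of replicates 1, 2 and 3. Genes are said to rise or fall where edgeR's quasi-likelihood test, adjusted over all 12441 genes, gave an adjusted p under 0.05.

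After cerulein, 4 of the 10 genes rose (Cftr, Gjb2, Aqp8 and Aqp1), 1 fell (Aqp12), and 5 did not pass the threshold (Car2, Slc4a4, Slc12a2, Kcnn4 and Gjb1). Each of the 5 changes was more than 2-fold. Over all genes tested, 55.8% passed, 28.7% as higher and 27.1% as lower, so the number of calls among the 10 is near the background and is not a result about them. Calls with an at least 2-fold change made up 18.3% of all genes in the higher direction and 17.7% in the lower. The cerulein and saline libraries did not overlap for 5 genes that were higher after cerulein (the 4 that rose and Slc4a4) and for 1 that was lower, beside 32.4% and 30.6% of all genes, together 63%. The median log2 fold change of the 10 was 0.68, against -0.000914 for all genes. Leaving out saline replicate 2 gave 0.40 for the 10 and leaving out saline replicate 1 gave 0.94, and with library size alone the median was 1.20 for the 10 and 0.56 for all genes. Of all genes 3574 rose and 3373 fell. Upper-quartile factors gave 2895 higher and 4190 lower and shifted the median of all genes by -0.20, and library size alone gave 5181 higher and 1449 lower with a shift of 0.56. The calls of these 5 genes and their directions held under every scaling and tool tried and without any 1 library.

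**Figure D1:**
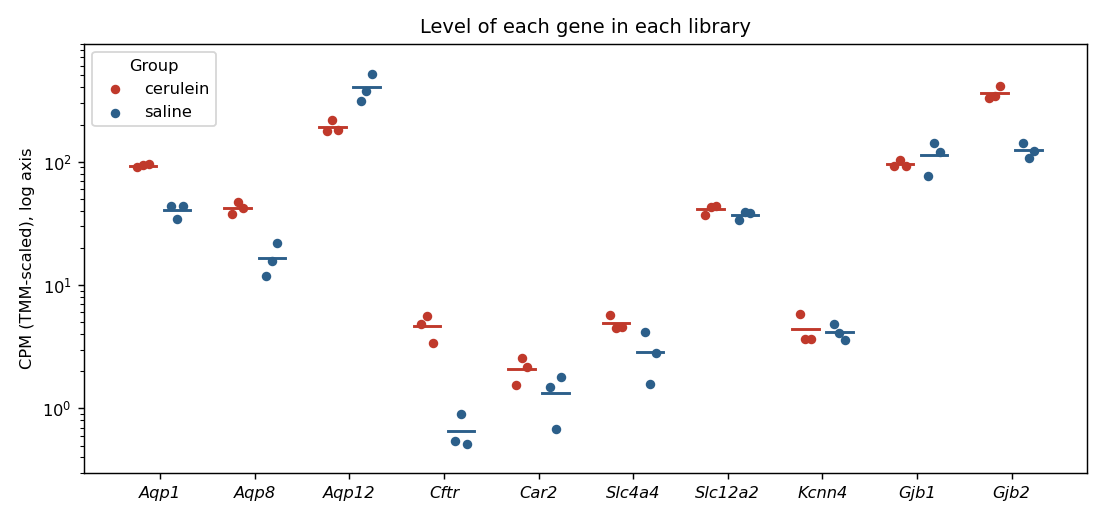
Level of each of the 10 genes in CPM on a log axis, 1 point per library, with a bar at the mean of 3 libraries, cerulein in red to the left of saline in blue. The points of the groups are apart for Aqp1, Aqp8, Cftr, Slc4a4 and Gjb2, which lie higher after cerulein, and for Aqp12, which lies lower.

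Among the water channels, Aqp1 and Aqp8 rose and the most abundant, Aqp12, fell. Aqp1 (chr6:55336432-55348555) encodes a water channel of duct cells, capillary endothelium and red blood cells. Its level was 90.8, 93.4 and 95.1 CPM in the cerulein libraries, against 43.6, 34.2 and 43.7 CPM in the saline libraries. All cerulein libraries lay above all saline libraries, and the cerulein values were the least spread of any of the 10 genes (coefficient of variation 2.33%). The log2 fold change was 1.20 ± 0.15 (SE, adjusted p = 2.10e-05, edgeR). In bulk tissue, more cells of a type and more RNA per cell cannot be told apart. The summed level of 12 endothelial markers ranged from 210 to 256 CPM in cerulein and from 215 to 233 CPM in saline, and that of 8 red blood cell markers from 66.3 to 98.4 CPM in cerulein and from 51.7 to 294 CPM in saline, so neither sum was separate between the groups. Of the 12 endothelial markers 2 rose and 2 fell, but 0 rose and 4 fell with upper-quartile factors, 4 rose and 0 fell with library size alone, and 3 rose and 0 fell without cerulein replicate 3. Of 4 tested red blood cell markers 0 passed in edgeR, 0 at an unadjusted p under 0.05 and 0 in DESeq2 or limma-voom, and 3 fell without saline replicate 1. The summed level of 11 duct markers was just separate, at 1278 to 1660 CPM in cerulein and 539 to 1276 CPM in saline. Most of that sum came from Tff2 and Krt19. Of 8 tested duct markers 4 rose and 2 fell. The part of these cell types in the Aqp1 result was not tested.

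Aqp8 (chr7:123462291-123468004) encodes a water channel of the apical membrane of acinar cells in rodents. It was measured at 38.0, 47.5 and 42.0 CPM in the cerulein libraries, and at 11.9, 15.5 and 22.1 CPM in the saline libraries. The lowest cerulein value was above the highest saline value. edgeR gave a log2 fold change of 1.39 ± 0.21 (SE, adjusted p = 1.13e-04), from 1060 reads in cerulein and 243 in saline.

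Aqp12 (chr1:93006334-93012269) encodes an intracellular aquaporin that in mouse is made almost entirely by pancreatic acinar cells. It had 179, 218 and 180.2 CPM in the cerulein libraries, against 311, 377 and 518 CPM in the saline libraries. Every cerulein library was below every saline library, and the saline libraries differed more among themselves (coefficient of variation 11.4% in cerulein and 26.4% in saline). On the log2 scale the change was -1.06 ± 0.21 (SE, adjusted p = 7.40e-04, edgeR), and it was smallest with library size alone, at -0.46. Acinar markers fell for 11 of 12 genes and rose for 1, and their summed level was 137856 to 165786 CPM in cerulein and 244092 to 510343 CPM in saline. Aqp12 fell with most of the acinar list and Aqp8, also an acinar gene, rose. The part of the acinar list in the Aqp12 result was not tested.

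Since reads of 2 genes in 1 library share its scaling, the ratio of Aqp8 to Aqp12 does not depend on the scaling. There were 0.212, 0.218 and 0.233 Aqp8 reads per Aqp12 read in the cerulein libraries, against 0.0383, 0.0412 and 0.0427 in the saline libraries. The log2 ratio averaged -2.18 ± 0.07 in cerulein and -4.61 ± 0.08 in saline (SD, n = 3 each). The difference of 2.44 was far larger than either spread, although 3 against 3 libraries cannot give a two-sided exact permutation p below 0.1, which was the value obtained. Saline replicate 1, which stood apart in its enzyme reads, did not stand apart in this ratio.

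The promoters of these 3 genes are shown because the genes share a function and moved in opposite directions. Each line holds the 250 bases before the RefSeq start on the gene's strand (GRCm38.p6), 5′ to 3′, at chr6:55336049-55336298, chr7:123462044-123462293 and chr1:93006084-93006333, all on the plus strand. Capitals mark matches to the E-box CANNTG, the core bound by basic helix-loop-helix factors, among them the acinar factors Ptf1a and Bhlha15. The genes of these factors moved in opposite directions. Ptf1a, the acinar marker that rose, had a log2 fold change of 1.38 ± 0.24 and Bhlha15 of -1.36 ± 0.20 (SE). Ptf1a shares exon bases with another gene of the table. The motif reads the same on both strands.
Aqp1: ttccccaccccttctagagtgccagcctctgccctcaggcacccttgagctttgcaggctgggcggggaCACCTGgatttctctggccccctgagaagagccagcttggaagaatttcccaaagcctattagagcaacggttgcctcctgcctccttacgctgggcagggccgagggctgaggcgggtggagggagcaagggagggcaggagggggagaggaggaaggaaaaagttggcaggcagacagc
Aqp8: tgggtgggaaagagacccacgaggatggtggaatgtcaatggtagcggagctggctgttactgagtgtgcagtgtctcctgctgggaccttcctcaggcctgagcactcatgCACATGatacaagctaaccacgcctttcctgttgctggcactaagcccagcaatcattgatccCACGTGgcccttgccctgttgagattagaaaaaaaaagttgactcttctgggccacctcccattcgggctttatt
Aqp12: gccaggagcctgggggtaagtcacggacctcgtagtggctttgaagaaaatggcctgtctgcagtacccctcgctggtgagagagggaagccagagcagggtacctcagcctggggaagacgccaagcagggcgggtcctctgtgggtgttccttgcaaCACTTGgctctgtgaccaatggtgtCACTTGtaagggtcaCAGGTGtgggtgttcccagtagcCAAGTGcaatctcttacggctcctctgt
The Aqp12 window holds 4 matches, the nearest ending 23 bases before the start and the farthest beginning 91 bases before it. The Aqp8 window holds 2 and the Aqp1 window 1. The bases just after the RefSeq start were found in a GENCODE M21 transcript for Aqp8 and Aqp12, but not for Aqp1. Of 32841 promoter windows of this length in the table, 66.23% hold at least 1 match, and 3.84% hold 4 or more. The AP-1 motif TGANTCA, searched on both strands, is in none of these 3 windows and in 6.75% of all windows. A match is a run of letters and was not tested for binding.

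Within the aquaporin family, the share of Aqp12 was 72.7%, 74.3% and 70.8% of the summed level per kilobase in the cerulein libraries, against 91.9%, 93.6% and 93.8% in the saline libraries. The share of Aqp1 was 14.7% ± 1.25 in cerulein and 4.05% ± 1.13 in saline, and that of Aqp8 was 11.1% ± 0.389 in cerulein and 2.61% ± 0.169 in saline (SD, n = 3 each). Aqp12 was the most abundant aquaporin transcript in all 6 libraries. These shares are also free of the library scaling and are given without a test, as they were computed after the values had been seen.

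Beside these 3 genes, 1 other aquaporin of 12 passed the filter. Aqp9, a channel for water, glycerol and other small solutes, had 323 reads over the cerulein libraries and 3 over the saline libraries. Relative to the TMM-scaled library sizes this is a ratio of 67.9, with an exact 95% interval from 23.0 to 331 that covers counting error only. Its level was 9.23, 11.0 and 19.1 CPM in the cerulein libraries, and its adjusted p was 1.40e-06 in edgeR. Aqp9 is also expressed by leukocytes. The summed level of 12 leukocyte markers was 191 to 199 CPM in cerulein and 54.5 to 317 CPM in saline. Ms4a1 was at 0, but it lies inside another gene of the table, which may affect how its reads were counted. Of 11 tested markers 2 rose and 0 fell, and over the alternatives 1 to 4 rose and 0 to 2 fell. The 4 came without saline replicate 1 and with limma-voom, the 1 without any 1 cerulein library and with upper-quartile factors, and the 2 lower ones without saline replicate 2, where the median log2 fold change of the list was -0.13 in place of 0.36. Their part in the Aqp9 result was not tested. Mip, Aqp2, Aqp5 and Aqp6 had 0 reads in the 6 libraries, and the other aquaporins were under the filter.

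**Figure D2:**
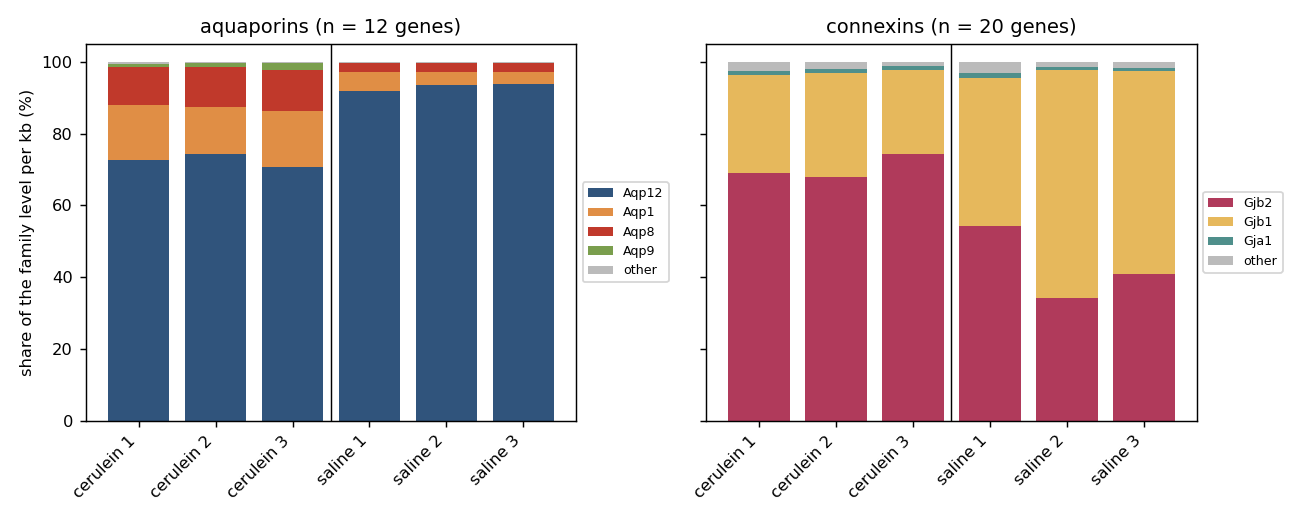
Share (%) of each gene in the summed level per kilobase of exon of 12 aquaporins (left) and 20 connexins (right), 1 bar per library, with cerulein libraries left of saline libraries. Aqp12 takes 70.8% to 74.3% of the aquaporin level after cerulein and 91.9% to 93.8% after saline, and Gjb2 takes 68.0% to 74.3% of the connexin level after cerulein and 34.2% to 54.3% after saline.

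Of the genes for chloride and bicarbonate movement, Cftr had the largest fold change of the 10 genes. Cftr (chr6:18170687-18322768) encodes the cyclic AMP-regulated anion channel of the apical duct membrane. It had 41, 48 and 27 reads in the cerulein libraries, against 4, 4 and 2 reads in the saline libraries. The levels were 4.85, 5.62 and 3.41 CPM in cerulein, against 0.542, 0.901 and 0.514 CPM in saline, and no cerulein library came near a saline one. The fitted log2 fold change was 2.82 ± 0.46 (SE, adjusted p = 1.72e-04, edgeR), with a 95% interval from 1.83 to 3.81 that is the second widest of the 10. Relative to the TMM-scaled library sizes, the ratio of the summed reads was 7.32, with an exact interval from 3.84 to 15.7 for counting error alone. The change of Cftr was above that of 97.1% of all genes tested, while its saline level was above that of only 1.33% of them. With so few saline reads, Cftr passed the filter on low counts through the cerulein libraries, as did Car2, Slc4a4 and Aqp9, among others. A low saline rank beside a high rank of change is thus partly set by the filter.

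Markers of duct cells moved in both directions. The summed level of 11 duct markers was 1278 to 1660 CPM in cerulein and 539 to 1276 CPM in saline. Most of it came from Tff2 and Krt19. Tff2, which did not pass the threshold, had 430 ± 94.6 CPM in cerulein and 847 ± 413 CPM in saline. Krt19 had 685 ± 95.4 CPM in cerulein and 23.3 ± 6.20 CPM in saline. Of 8 duct markers that were tested, 4 rose (Krt19, Krt7, Sox9 and Spp1) and 2 fell, among them Pkhd1. Pkhd1 shares exon bases with another gene of the table. Over the alternatives 4 rose in each and 1 to 4 fell, 1 with library size alone and 3 without saline replicate 1. The secretin receptor Sctr, which drives duct secretion, had 10 reads in cerulein and 18 in saline and was under the filter, and Cldn18 was at 0. The part of duct cells in the Cftr result was not tested.

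The window before the Cftr start is shown because it differs from the aquaporin windows in composition. It lies at chr6:18170437-18170686 on the plus strand (RefSeq, GRCm38.p6) and is written in lower case throughout, as it holds neither the E-box nor the AP-1 letters.
Cftr: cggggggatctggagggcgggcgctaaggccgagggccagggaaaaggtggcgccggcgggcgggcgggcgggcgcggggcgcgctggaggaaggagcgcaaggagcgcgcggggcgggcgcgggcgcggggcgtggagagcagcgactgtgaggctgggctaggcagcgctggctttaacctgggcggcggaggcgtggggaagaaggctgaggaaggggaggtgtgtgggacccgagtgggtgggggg
Its G and C content is 76.4%, against 62.0% in the Aqp1 window, 52.4% in the Aqp8 window and 58.0% in the Aqp12 window.

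The partners of Cftr in bicarbonate secretion did not pass the threshold. Slc4a4 (chr5:88886818-89239653), the sodium bicarbonate cotransporter of the basolateral membrane, had 5.68, 4.45 and 4.55 CPM in the cerulein libraries, against 4.20, 1.58 and 2.83 CPM in the saline libraries. The groups did not overlap, yet the saline values were widely spread (coefficient of variation 45.7%). Slc4a4 also passed the filter on low counts through the cerulein libraries. The log2 fold change was 0.71 ± 0.37 (SE, 95% interval -0.08 to 1.50, adjusted p = 0.116, edgeR). Without saline replicate 1 it was 1.13 with an adjusted p of 0.0292, and with library size alone it was 1.24 with an adjusted p of 0.0445, both past the threshold in edgeR. Without saline replicate 2 it was 0.44 with an adjusted p of 0.309 in edgeR.

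Car2 (chr3:14886273-14900770), the cytosolic carbonic anhydrase that makes bicarbonate from carbon dioxide, had 13, 22 and 17 reads in the cerulein libraries, against 11, 3 and 7 reads in the saline libraries. The levels were 1.54 to 2.57 CPM in cerulein and 0.676 to 1.80 CPM in saline, and the groups overlapped. edgeR gave a log2 fold change of 0.64 ± 0.47 (SE, 95% interval -0.37 to 1.66, adjusted p = 0.263), an interval that holds both no change and an increase of over 2-fold. Leaving out 1 library gave 0.37 (without saline replicate 2) to 0.85 (without saline replicate 3), and library size alone gave 1.17.

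The number of Cftr reads per Slc4a4 read was 0.854, 1.26 and 0.750 in the cerulein libraries, against 0.129, 0.571 and 0.182 in the saline libraries. The difference of the log2 ratio was 1.82, with means of -0.10 ± 0.39 in cerulein and -1.92 ± 1.06 in saline (SD, n = 3 each), and the exact permutation test again gave its minimum of p = 0.1 (two-sided). All cerulein ratios were above all saline ratios, but the saline ratios rest on 2 to 4 Cftr reads each, and leaving out 1 library gave differences from 1.37 to 2.40.

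Slc12a2 (chr18:57878678-57946821), the basolateral sodium, potassium and chloride cotransporter, did not pass the threshold. It had 37.2, 43.1 and 43.6 CPM in the cerulein libraries, against 33.9, 39.0 and 38.3 CPM in the saline libraries, and the groups overlapped. On the log2 scale the change was 0.16 ± 0.15 (SE, 95% interval -0.17 to 0.49, adjusted p = 0.393, edgeR). This was the narrowest interval but 1 of the 10 genes, and its upper end is well under 2-fold. Leaving out 1 library gave 0.060 (without saline replicate 1) to 0.24 (without cerulein replicate 1). The value was -0.04 with upper-quartile factors and 0.74 with library size alone, where it passed the threshold (adjusted p = 0.00825, edgeR).

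Kcnn4 (chr7:24370263-24386690), a calcium-activated potassium channel of intermediate conductance, had 49, 31 and 29 reads in the cerulein libraries, against 36, 18 and 14 reads in the saline libraries. In CPM this was 5.80, 3.63 and 3.66 in cerulein, against 4.88, 4.05 and 3.60 in saline, with the groups overlapping. The fitted log2 fold change was 0.04 ± 0.32 (SE, 95% interval -0.66 to 0.74, adjusted p = 0.922, edgeR), and it turned to -0.15 with upper-quartile factors.

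**Figure D3:**
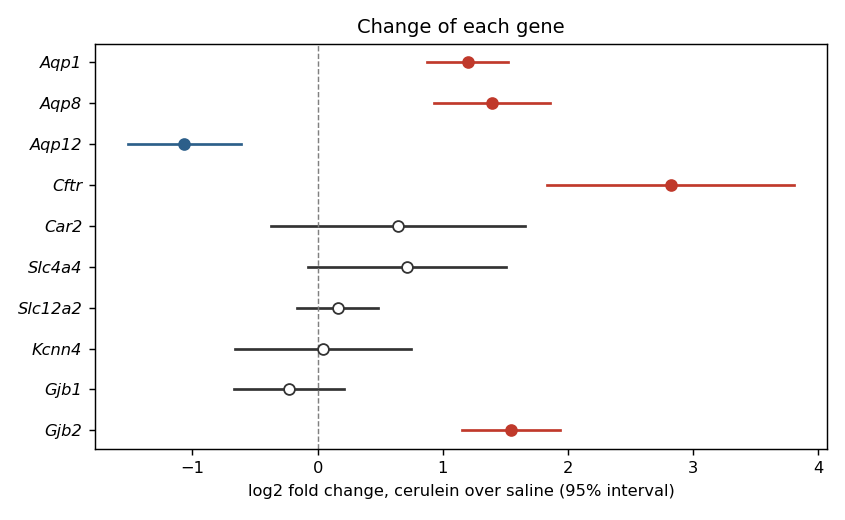
Log2 fold change of cerulein over saline for each gene with its 95% interval from edgeR. Filled points passed an adjusted p of 0.05 and open points did not. Cftr lies at 2.82, Gjb2 at 1.54, Aqp8 at 1.39, Aqp1 at 1.20 and Aqp12 at -1.06, and the intervals of the 5 open genes include 0.

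Of the acinar connexins Gjb2 rose and Gjb1 did not pass the threshold. Gjb2 and Gjb1 encode Cx26 and Cx32, which together form the gap junctions between acinar cells. Gjb2 (chr14:57098600-57104702) had 329, 340.5 and 413 CPM in the cerulein libraries, against 142, 107 and 121 CPM in the saline libraries. The groups were far apart, and the log2 fold change was 1.54 ± 0.18 (SE, adjusted p = 1.18e-05, edgeR), the smallest adjusted p of the 10 genes. The rise rests on 8961 reads in cerulein and 1997 in saline.

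Gjb1 (chrX:101376378-101385629) had 92.3, 102 and 92.6 CPM in the cerulein libraries, against 76.5, 142 and 119 CPM in the saline libraries. The cerulein libraries lay close together and between the saline values. The log2 fold change was -0.23 ± 0.20 (SE, 95% interval -0.67 to 0.21, adjusted p = 0.359, edgeR). Its direction depended on the scaling, and it was 0.39 with library size alone (adjusted p = 0.0748, edgeR). Saline replicate 1 was the low saline value, and without it the log2 fold change was -0.48 with an adjusted p of 0.0130 in edgeR, past the threshold. Without saline replicate 2, the high saline value, it was -0.022 with an adjusted p of 0.931 in edgeR.

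There were 3.57, 3.33 and 4.46 Gjb2 reads per Gjb1 read in the cerulein libraries, against 1.86, 0.757 and 1.02 in the saline libraries. All cerulein ratios exceeded all saline ratios, and saline replicate 1 was nearest to them. The log2 ratio was 1.91 ± 0.22 in cerulein and 0.17 ± 0.66 in saline (SD, n = 3 each), a difference of 1.74, for which the two-sided exact permutation p was also 0.1. Leaving out 1 library gave 1.45 to 2.10. Per kilobase, Gjb2 made up 70.4% ± 3.40 of the summed connexin level in cerulein and 43.1% ± 10.3 in saline, and Gjb1 26.5% ± 2.73 in cerulein and 53.8% ± 11.4 in saline (SD, n = 3 each). The summed level of 20 connexin genes was 212 ± 16.6 CPM per kilobase in cerulein and 121 ± 11.2 in saline.

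**Figure D4:**
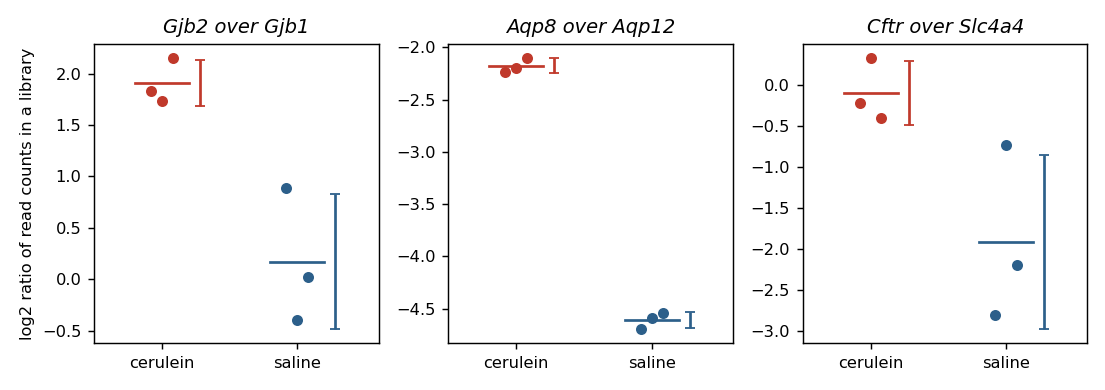
Log2 ratio of the reads of 2 genes in the same library, 1 point per library, with a bar at the mean and an error bar of 1 SD (n = 3), cerulein left of saline. Means are 1.91 and 0.17 for Gjb2 over Gjb1, -2.18 and -4.61 for Aqp8 over Aqp12, and -0.10 and -1.92 for Cftr over Slc4a4, in cerulein and in saline, and the points of the groups do not overlap in any panel.

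The coding sequences of Gjb2 and Gjb1 in GENCODE M21 are 678 and 849 bases long, are identical at 70.8% of 668 aligned bases, and share no run longer than 15 bases. Among the aquaporins the identity was 61.8% between Aqp8 and Aqp12, 64.9% between Aqp1 and Aqp8 and 63.6% between Aqp1 and Aqp12. No gene of the 10 shares exon bases with another gene of the table in GENCODE M21. In RefSeq, Gm35855, with 0 reads, lies inside Slc4a4, and Gm32912, with 23 reads in all libraries, partly overlaps the span of Gjb2.

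The Gjb2 promoter is shown as that of the connexin that rose. The window lies at chr14:57104703-57104952 on the minus strand (RefSeq, GRCm38.p6), with capitals at its single E-box, 9 to 4 bases before the start.
Gjb2: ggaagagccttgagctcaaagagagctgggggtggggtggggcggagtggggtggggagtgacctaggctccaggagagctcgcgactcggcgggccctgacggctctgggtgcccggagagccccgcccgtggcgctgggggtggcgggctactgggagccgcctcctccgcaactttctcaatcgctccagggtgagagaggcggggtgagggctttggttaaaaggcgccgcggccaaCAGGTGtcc
RefSeq lists 4 starts for Gjb1, whose windows hold 1, 1, 5 and 3 E-box matches in genomic order, and a count per gene does not tell which start was used. The bases just after starts 2 and 3 were not found in a GENCODE M21 transcript of Gjb1. No window of any member in the table held the AP-1 letters. The table has windows for 8 of the 10 genes.

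The order of the 10 genes by level per kilobase of exon was led by Aqp12 and the connexins. In cerulein, Aqp12 stood at 177 ± 20.1 CPM per kilobase and Gjb2 at 150.0 ± 18.8, and the ranges of these neighbours overlapped. Gjb1 followed at 56.1 ± 3.32, Aqp1 at 35.4 ± 0.826, Aqp8 at 26.9 ± 3.02 and Slc12a2 at 3.78 ± 0.326, each separate from the next. Car2, Kcnn4, Cftr and Slc4a4 lay between 0.861 and 0.452, each overlapping its neighbour in range.

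In saline, Aqp12 stood alone at 369.6 ± 97.4 CPM per kilobase. Gjb1 at 65.9 ± 19.4 and Gjb2 at 51.3 ± 7.25 overlapped, as did Aqp1 at 15.4 ± 2.07 and Aqp8 at 10.5 ± 3.27, and Slc12a2 followed at 3.39 ± 0.255. Kcnn4, Car2 and Slc4a4 lay between 0.817 and 0.265, each overlapping the next, and Cftr was last at 0.0840 ± 0.0278, separate from Slc4a4. All these levels are means ± SD over 3 libraries and use GENCODE M21 exon lengths, while the annotation behind the counts is not given in the sources used here.

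Around the 10 genes, 9 lists of related genes hold 126 others, of which 74 were tested. Of these 21 (28.4%) rose and 22 (29.7%) fell, close to the 28.7% and 27.1% of all genes, and their median log2 fold change was -0.0016. In 8 of the 9 lists some genes rose and others fell. Several genes named here share exon bases with another gene of the table, so that their reads may be mixed, since the strand setting of the counting is not known here: Ano6, Ttyh1, Lrrc8a, Slc4a2, Kcnq1, Fxyd5, Atp1b1, Ezr, Gjd2 and Ctnna1, and Kcnj15 lies inside Gm31641.

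Chloride channels and anion exchangers rose for 6 of 14 tested genes and fell for 4, Cftr included, and 7 rose and 2 fell with library size alone. The calcium-activated chloride channel Ano1 reached 126 ± 11.7 CPM in cerulein, against 39.9 ± 2.38 CPM in saline (log2 fold change 1.66 ± 0.15, adjusted p = 1.21e-06, edgeR). Ano6, a scramblase and ion channel of the same family, rose by 1.69 ± 0.15 and Lrrc8a, a subunit of the volume-regulated anion channel, by 1.18 ± 0.17 on the log2 scale, and Ttyh1 fell by 1.83 ± 0.20. The tested Slc4 and Slc26 genes of the list, chosen after their values were seen, went both ways. Slc26a9, an epithelial chloride channel and transporter, had 22.5 ± 5.41 CPM in cerulein and 3.54 ± 2.77 CPM in saline (SD, n = 3 each), with a log2 fold change of 2.51 ± 0.42 (adjusted p = 7.06e-04, edgeR). Slc26a6, the apical chloride and bicarbonate exchanger of ducts, had a log2 fold change of -1.27 ± 0.28 (adjusted p = 0.00173, edgeR), and Slc4a2, a basolateral one, of 0.81 ± 0.15. Slc4a3 at 0.64 ± 0.38 and Slc26a11 at 0.0019 ± 0.28 did not pass the threshold. Slc26a6 kept its direction but lost its call with library size alone.

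Carbonic anhydrases rose for 1 of 8 tested genes and fell for 2. Car9, a membrane-bound form known to be induced by hypoxia, had 17.0 ± 5.16 CPM in cerulein and 3.80 ± 1.99 CPM in saline (SD, n = 3 each), with a log2 fold change of 2.07 ± 0.34. Car8, which lacks the enzyme activity, and Car4, which is anchored to the membrane, fell by 0.81 ± 0.26 and 1.21 ± 0.39. The calls of Car8 and Car4 were lost with library size alone and without cerulein replicate 1, cerulein replicate 3 or saline replicate 3, and that of Car8 also without saline replicate 2.

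Sodium, proton and cation cotransporters rose for 2 of 10 tested genes and fell for 2, and rose for 7 and fell for 1 with library size alone. The potassium and chloride cotransporter Slc12a4 and the sodium and proton exchanger Slc9a8 rose by 0.78 ± 0.18 and 0.60 ± 0.17 on the log2 scale, Slc9a8 not with upper-quartile factors. Slc12a9 and the sodium bicarbonate cotransporter Slc4a7 fell by 1.33 ± 0.21 and 0.92 ± 0.20, Slc4a7 not with library size alone. Among potassium channels 2 of 12 rose and 3 fell. Kcnk5, a background leak channel, and Kcnk1, chosen after its value was seen, rose by 1.85 ± 0.28 and 0.58 ± 0.14. Kcnj15 fell by 3.76 ± 0.62 and Kcnh1 by 1.87 ± 0.32. The saline libraries were widely spread for Kcnj15, with 2.96 ± 1.16 CPM in cerulein and 39.2 ± 27.0 CPM in saline (SD, n = 3 each). Kcnq1, a voltage-gated channel, had 26.8 ± 3.74 CPM in cerulein and 53.5 ± 8.92 CPM in saline (SD, n = 3 each) and fell, though not with library size alone.

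Sodium pump subunits rose for 2 of 9 tested genes and fell for 2, and rose for 4 and fell for 0 with library size alone. The regulator Fxyd5 had 12.7 ± 2.73 CPM in cerulein and 1.38 ± 1.42 CPM in saline (SD, n = 3 each) and rose by 2.97 ± 0.47 on the log2 scale. With 319 reads in cerulein and 27 in saline, Fxyd5 passed the filter on low counts through the cerulein libraries. The beta subunit Atp1b1 fell by 0.72 ± 0.18 and Fxyd6 by 0.81 ± 0.24, neither with library size alone, and Fxyd6 also lost its call without cerulein replicate 3 or saline replicate 3.

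Regulators of secretion transporters fell for 8 of 15 tested genes and rose for 1, with a median log2 fold change of -0.45, and 4 fell and 3 rose with library size alone, where the median was 0.12. Vipr1, a receptor for vasoactive intestinal peptide, fell to 4.60 ± 0.741 CPM in cerulein, against 34.1 ± 2.57 CPM in saline (SD, n = 3 each; log2 fold change -2.88 ± 0.19, adjusted p = 9.99e-08, edgeR). Stk39, the kinase SPAK that acts on Slc12a2 and Cftr, fell by 2.12 ± 0.21 and Ahcyl2, a relative of the Cftr and Slc4a4 activator Ahcyl1, by 1.28 ± 0.18. Ezr, the actin linker ezrin, rose by 2.09 ± 0.18.

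Of 20 connexins, 5 were tested, 2 rose and 1 fell. Gja1, the connexin of many connective and vascular cells, reached 24.4 ± 1.43 CPM in cerulein, against 11.9 ± 3.09 CPM in saline, a log2 fold change of 1.01 ± 0.20. Gjd2, the connexin of beta cells and neurons, fell by 1.72 ± 0.49 from few reads (15 in cerulein and 31 in saline), not with library size alone. Gjd2 only just passed the filter on low counts, and did so through the saline libraries, where it was higher. Pannexins and junction partners rose for 6 of 7 tested genes and fell for 0. All 6 were junction partners. Panx1, the only pannexin tested, did not pass the threshold (log2 fold change 0.43 ± 0.60, adjusted p = 0.570, edgeR). In the list 5 rose with upper-quartile factors, without any 1 cerulein library and without saline replicate 1 or 3. The epithelial cadherin Cdh1, whose adhesion holds the membranes that gap junctions bridge, reached 1613 ± 106 CPM in cerulein, against 136 ± 23.5 CPM in saline (SD, n = 3 each; log2 fold change 3.57 ± 0.21, adjusted p = 4.02e-08, edgeR). Tjp1, a scaffold that binds connexins, rose by 1.07 ± 0.19 and Ctnna1, a catenin, by 1.80 ± 0.18.

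**Figure D5:**
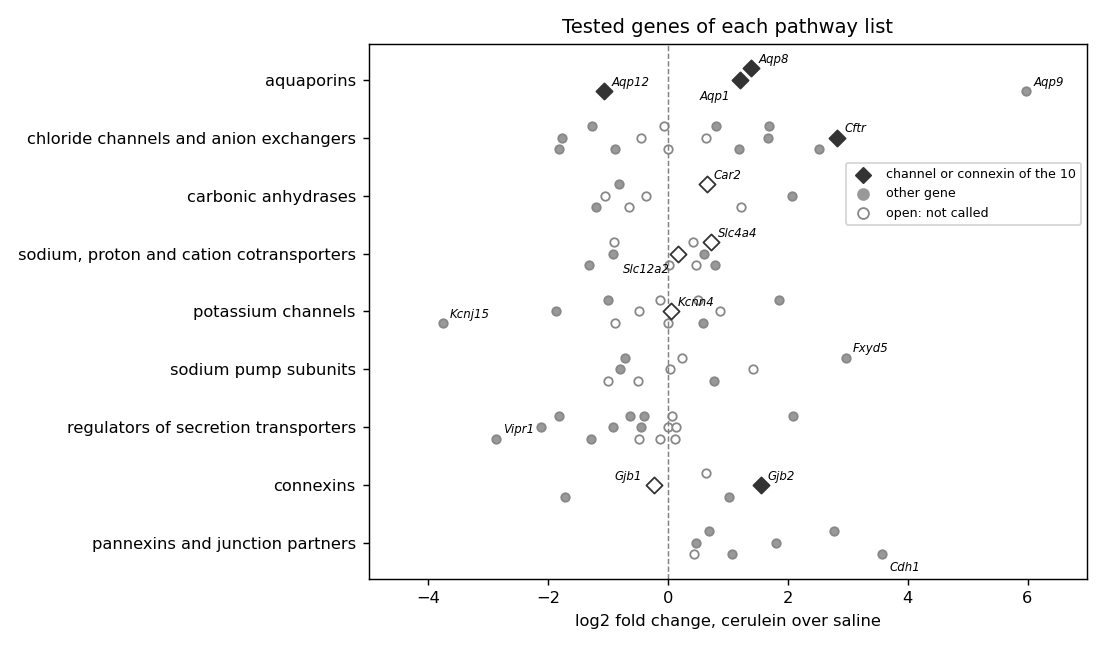
Log2 fold change of cerulein over saline for the tested genes of each of the 9 lists, the 10 genes as diamonds and others as circles, filled where the adjusted p was under 0.05 with names for the diamonds and the largest other changes. Genes lie on both sides of 0 in each list except pannexins and junction partners, where the 7 tested genes lie between 0.43 and 3.57.

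Of 9 tested islet markers 3 fell and 0 rose. Over the alternatives 1 to 6 fell and 0 to 2 rose, with 6 lower without saline replicate 1 and 2 higher with library size alone. Of 9 stellate and smooth muscle markers 2 rose and 1 fell (2 to 6 and 0 to 1 over the alternatives). Of 4 adipocyte markers 1 rose and 1 fell, and of 2 nerve and Schwann cell markers 1 rose. Among all genes tested 28.7% rose and 27.1% fell, so these small counts are not read as changes of the cell types.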

How the data were processed

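Pancreatic messenger RNA was sequenced from 3 cerulein-injected and 3 saline-injected mouse samples, with stranded libraries per the labels' protocols. The authors deposited whole-number counts of reads per gene. Trimmomatic, STAR, HTSeq and the build mm10 are named in the submitters' processing notes, without versions, and settings, strand option and gene annotation were not stated in any source read here. Samples were grouped by their titles.

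From these counts, edgeR 4.0.16 (R 4.3.3) was run with TMM factors, filterByExpr (minimum count 10, minimum total 15), robust dispersion and the quasi-likelihood test over all 6 libraries, with Benjamini-Hochberg adjustment over 12441 genes. The procedure was tested on simulated data with few changed genes, balanced in direction, which cannot check the scaling in data changed this widely. Ratios of 2 genes within a library used counts plus 0.5 and a two-sided exact permutation test. Exact intervals of summed reads, taken relative to TMM-scaled library sizes, cover counting error only. Levels per kilobase and gene positions used GENCODE M21 (GRCm38), and promoters RefSeq (GRCm38.p6), matched by symbol. Library totals were 5335117 to 7610775 reads, so genes with few reads, such as Cftr and Car2, have wide intervals.

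The alternatives were upper-quartile, library-size and RLE scaling, DESeq2 1.42.0, limma-voom (limma 3.58.1), no filter, a replicate block, leaving out each library and, added after the data were seen, leaving out 22 digestive enzyme genes. The 10 genes and all lists (9 of related genes, 9 of cell type markers, 1 of digestive enzymes) were chosen with earlier results of these data known. Of each list of related genes, the 4 with the smallest p among those past the threshold are named, except for items that are not reported here. The most similar pair of replicates still differed beyond sampling noise, so all 6 libraries were kept as separate samples.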

Additional observations from a re-analysis of the deposited data

How the results depend on the processing

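The calls of Aqp1, Aqp8, Aqp12, Cftr and Gjb2 and their directions held under all alternatives run, with log2 fold changes of 0.998 to 1.75, 1.15 to 1.98, -1.26 to -0.46, 2.63 to 3.36 and 1.34 to 2.09 in that order. Over the single-gene values of the 10 genes, 130 of 140 alternative values kept direction and side of the threshold, 4 newly passed and 6 turned. With upper-quartile factors Slc12a2 turned to -0.040 and Kcnn4 to -0.15, with library size alone Gjb1 turned to 0.39, and with limma-voom Kcnn4 turned to -0.017. Leaving out 1 library moved Kcnn4 between -0.20 (cerulein replicate 1 out) and 0.17 (cerulein replicate 2 out), with -0.05 without saline replicate 3. Leaving out 1 library gave 4 to 5 of the 10 genes higher and 1 to 2 lower, the 2 without saline replicate 1. With library size alone, 10 genes of the related lists fell in place of 23, and 1449 of all genes in place of 3373. Leaving out the digestive enzymes, an alternative chosen after the data were seen, changed no call of the 10 genes. With a replicate block 3673 genes rose and 3401 fell, and 4 and 1 of the 10. Deviations of same-numbered libraries correlated at 0.19, 0.22 and -0.15, and cerulein replicate 3 was not most like saline replicate 3, so the numbers were not taken to pair the libraries. The cause of these changes was not tested. Depth limits Cftr, Car2, Slc4a4 and Kcnn4, each with at most 49 reads in any library.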
